A study of Homo sapiens with 6 samples.

Results

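The DNAJ genes encode J-domain proteins, also called HSP40s, the co-chaperones of the HSP70 family. Members were the rows of the deposited count table whose symbol is DNAJA, DNAJB or DNAJC followed by a number and at most 1 letter, which gave 45 of 55882 rows: 4 of subfamily A, 13 of subfamily B and 28 of subfamily C. The RNA came from DIvA cells, a derivative of U2OS (a human osteosarcoma line), where 4-hydroxytamoxifen (4-OHT) sends the restriction enzyme AsiSI into the nucleus to cut DNA. One group of 3 libraries had wild-type p53 (p53 WT) and the other 3 were labelled as p53 knockout (p53 KO). Both groups received 300 nM 4-OHT for 5 h, and untreated cells were not analysed here, so no value below shows the effect of the DNA cuts. The labels do not say how many knockout clones were used or whether replicates were separate cultures. The p-values therefore measure only the spread between these libraries, and a clonal difference and the loss of p53 cannot be told apart.

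HSP70 proteins bind and release unfolded stretches of other proteins in a cycle driven by ATP. The J domain, with its conserved histidine, proline and aspartate, stimulates ATP hydrolysis by HSP70 and so fixes the client in place, while other parts of the co-chaperone choose the client and the place in the cell. Subfamily A members keep the layout of bacterial DnaJ, with a glycine- and phenylalanine-rich stretch and a zinc-finger-like region. Subfamily B members lack the zinc-finger-like region, and subfamily C members share only the J domain and are otherwise diverse.

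Libraries held 20393909 to 79767519 counts. At that depth 3 counts, the limit that a count of 0 allows, came to 0.0376 to 0.147 CPM (counts scaled to a common library total), covering counting error only. CDKN1A, which p53 induces, had 542 ± 27.0 CPM (SD, n = 3) in p53 WT and 45.8 ± 3.68 CPM (SD, n = 3) in p53 KO, and MDM2 had 221 ± 29.6 and 57.6 ± 13.3 CPM (SD, n = 3). Of the mesenchymal and bone markers, VIM had group means of 3333 and 1618 CPM and COL1A1 of 688 and 930 CPM, while COL1A2 was near 0 at 0.315 and 0.494 CPM. The summed level of these 7 markers was 7082 to 7537 CPM in p53 WT and 3901 to 4266 CPM in p53 KO, 5 of them being lower and 1 higher, so the groups also differed in genes of cell identity. Summed epithelial markers were 6.60 to 10.4 CPM in p53 WT and 13.5 to 20.2 CPM in p53 KO (1 of 4, CLDN7, rose), and leukocyte markers stayed between 1.12 and 2.25 CPM. The part of these marker shifts in the DNAJ values was not tested, and in bulk RNA fewer cells of a kind and less RNA per cell cannot be told apart.

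Promoter sequences matched by symbol for 40 of the 45 members. They are shown for DNAJA4 and DNAJC5, which had the smallest adjusted p, for DNAJB6, chosen after its matches were seen, and for DNAJA1, the most abundant member, which did not pass the test. Each is the 250 bases before the RefSeq start on GRCh38.p14, plus strand, 5′ to 3′, and capitals mark matches to the heat shock element cores GAANNTTC and TTCNNGAA, the kind of site that heat shock factor binds.
DNAJA4, chr15:78263895-78264144: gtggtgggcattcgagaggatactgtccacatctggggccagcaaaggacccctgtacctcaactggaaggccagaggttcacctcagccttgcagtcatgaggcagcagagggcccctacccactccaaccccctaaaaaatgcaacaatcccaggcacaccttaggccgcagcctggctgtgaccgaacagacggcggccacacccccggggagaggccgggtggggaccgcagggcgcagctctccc
DNAJC5, chr20:63894876-63895125: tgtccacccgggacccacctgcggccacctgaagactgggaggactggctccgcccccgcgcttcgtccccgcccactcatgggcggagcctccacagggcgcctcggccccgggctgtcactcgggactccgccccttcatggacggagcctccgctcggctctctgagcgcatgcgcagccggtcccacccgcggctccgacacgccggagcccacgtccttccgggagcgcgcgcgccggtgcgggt
DNAJB6, chr7:157336754-157337003: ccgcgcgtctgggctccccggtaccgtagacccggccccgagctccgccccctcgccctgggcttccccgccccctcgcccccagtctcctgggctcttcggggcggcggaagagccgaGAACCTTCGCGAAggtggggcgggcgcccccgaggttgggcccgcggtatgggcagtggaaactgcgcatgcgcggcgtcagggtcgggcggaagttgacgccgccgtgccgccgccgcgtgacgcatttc
DNAJA1, chr9:33025023-33025272: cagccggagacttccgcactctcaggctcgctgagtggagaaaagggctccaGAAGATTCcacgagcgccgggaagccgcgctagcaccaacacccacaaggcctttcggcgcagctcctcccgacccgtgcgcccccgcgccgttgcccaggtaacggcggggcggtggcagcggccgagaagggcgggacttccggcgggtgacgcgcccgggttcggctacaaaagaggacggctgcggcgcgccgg

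DNAJB6 held 2 cores that overlap in 1 stretch, their first bases 131 and 126 bases before the start, and DNAJA1 held 1, 198 bases before it. Either core, read on both strands, stood in 4 of the 40 member promoters (10%), namely those of DNAJA1, DNAJB6, DNAJB7 and DNAJC15, and in 11.7% of 27305 promoters of the same length. The core was therefore about as common among the members as elsewhere. The CCAAT box, searched on both strands, stood in 17 of the 40 (42.5%) against 33% of all promoters, and the endoplasmic reticulum stress response element, whose longer motif contains that box, stood in 0 of the 40 and in 0.0806% of all. A match is only a match of letters in this window, and 1 start per gene was searched.

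Of the 45 members, 39 had enough counts to be tested. With p53 KO against p53 WT, 10 of these were higher and 7 were lower at an adjusted p under 0.05 (edgeR's quasi-likelihood test, adjusted over all 22352 genes tested), which is 43.6% where 26.5% of all tested genes passed. The share higher among all genes was 12.1% and the share lower 14.4%. Among genes with at least 1 CPM in 3 libraries, 17 of 38 members and 5922 of 17176 genes passed, a narrower gap. The difference between these shares was not tested. The median size of the log2 fold change, regardless of sign, was 0.30 in the tested members and 0.40 over all tested genes. The median log2 fold change of the tested members was 0.07, beside 0.01 over all tested genes; members moved in both directions. In subfamily A 2 of 4 members rose and 1 fell, in subfamily B 4 of 11 rose and 3 fell, and in subfamily C 4 of 24 rose and 3 fell. The share that passed was 75%, 63.6% and 29.2%, with medians of 0.34, 0.10 and 0.02. The groups did not overlap for 53.8% of the tested members and for 40.8% of all tested genes.

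**Figure D1:**
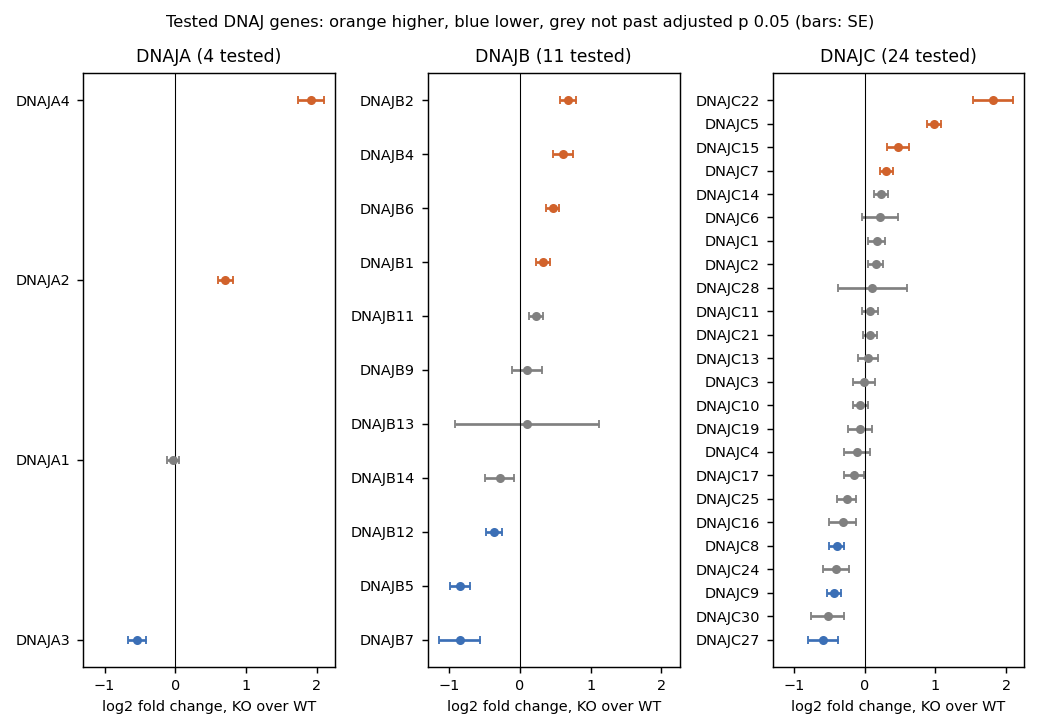
Log2 fold change of each tested DNAJ gene, p53 KO over p53 WT, by subfamily; points are the fitted values, bars their standard error, and colour shows the direction of those past an adjusted p of 0.05. DNAJA4 and DNAJC22 lie farthest to the right, at 1.92 and 1.81, and DNAJB7 and DNAJB5 farthest to the left, at -0.85 each.

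The family took 2667 to 2771 CPM in the p53 WT libraries and 2889 to 2963 CPM in the p53 KO libraries, so its summed level was higher in every p53 KO library. Subfamily B accounted for most of that gap, with 697 to 713 CPM in p53 WT and 822 to 909 CPM in p53 KO, while the sums of subfamilies A and C overlapped between groups. Per kilobase of exon (union of GENCODE 29 exons, so isoforms are not separated), DNAJA1 stood far above the rest, at 232 CPM per kilobase in p53 WT. DNAJB1 at 48.3, DNAJC8 at 48.1, DNAJC9 at 29.3 and DNAJB2 at 25.7 CPM per kilobase followed, DNAJB1 and DNAJC8 being too close to order. In p53 KO the order below DNAJA1 became DNAJB1 at 60.6, DNAJB2 at 41.0 and DNAJC8 at 36.6, and DNAJB11, DNAJC5, DNAJC9 and DNAJA2 stood together at 22.7, 21.9, 21.7 and 21.6 CPM per kilobase.

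**Figure D2:**
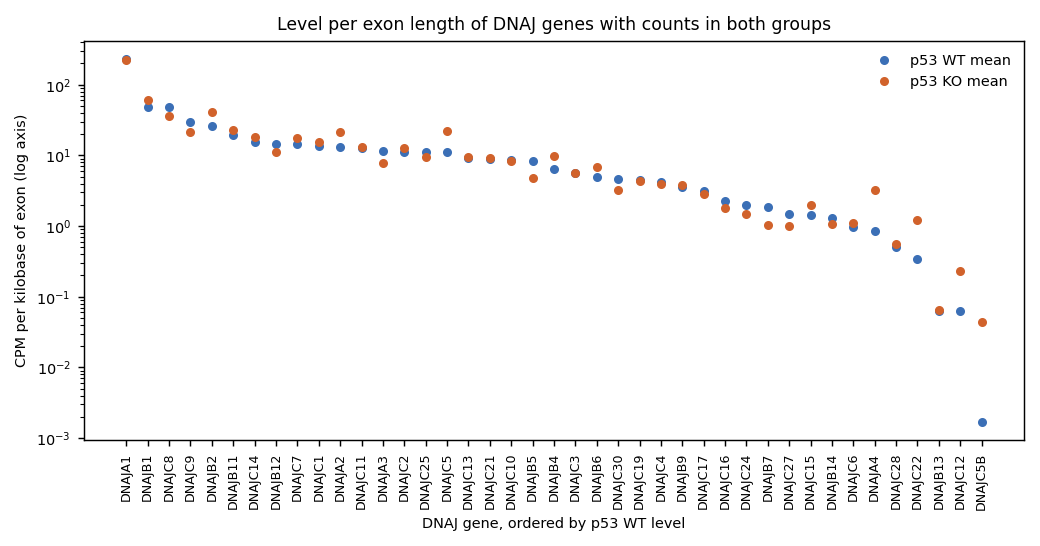
Group mean level per kilobase of exon (log axis) of each DNAJ gene with counts in both groups, ordered by the p53 WT level. DNAJA1 is highest in both groups, at 232 and 227 CPM per kilobase, and DNAJA4, DNAJC22 and DNAJC5 show wide gaps between their p53 WT and p53 KO points.

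Of 9 members grouped by place as cytosolic and nuclear, 7 rose and 1 fell, where 12.1% of all tested genes rose and 14.4% fell. This grouping was made with earlier results of these data known. With the median of the 50 nearest genes subtracted, 5 of the 9 were higher and 1 lower. DNAJA1, the general partner of cytosolic HSP70, was the member that did not pass, with 606, 674 and 620 CPM in p53 WT and 604, 615 and 638 CPM in p53 KO. Its libraries overlapped, and its log2 fold change of -0.03 (SE 0.09) carried an adjusted p of 0.828. Its pseudogene DNAJA1P3 reached at most 0.451 CPM in any library. DNAJA2, a close relative that also serves HSP70 refolding, had 71.7, 67.7 and 61.0 CPM in p53 WT and 118, 97.4 and 112 CPM in p53 KO. All 3 p53 KO libraries lay above all p53 WT libraries, and the log2 fold change was 0.71 (SE 0.11, adjusted p = 0.000275).

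DNAJA4, a stress-inducible subfamily A member, showed the largest difference of the family. It had 4.98, 6.27 and 5.51 CPM in p53 WT and 23.6, 17.5 and 22.2 CPM in p53 KO, which is 1.92 on the log2 scale (SE 0.18, adjusted p = 3.5e-06). The lowest p53 KO library, at 17.5 CPM, lay well above the highest p53 WT library, at 6.27 CPM. DNAJA4 also lay inside a long stretch of shifted neighbours, defined as at least 25 genes in a row whose running median over 51 genes exceeds 0.4 in size on the log2 scale. The median log2 fold change of the 50 genes nearest to it on chromosome 15 was 0.67. With that local level taken off, DNAJA4 was still higher, by 1.25 on the log2 scale (adjusted p = 0.000186).

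In subfamily B, DNAJB1, the heat-inducible HSP40 that works with HSP70 in refolding and in opening protein aggregates, had 191, 170.3 and 171 CPM in p53 WT and 238, 203 and 227 CPM in p53 KO. Its groups did not overlap, but the step was small, at 0.33 on the log2 scale (SE 0.10, adjusted p = 0.0232). DNAJB2, which carries ubiquitin-interacting motifs and hands clients to the proteasome, had 153, 145 and 155 CPM in p53 WT and 207, 234 and 283 CPM in p53 KO. The p53 KO libraries of DNAJB2 were all higher and more spread, and the log2 fold change was 0.68 (SE 0.11, adjusted p = 0.000486).

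DNAJB4, a cytosolic relative of DNAJB1, had 21.7, 26.4 and 25.7 CPM in p53 WT and 42.3, 38.3 and 31.1 CPM in p53 KO. Its groups stood apart, at 0.60 on the log2 scale (SE 0.14, adjusted p = 0.0054). DNAJB6, known for keeping polyglutamine proteins from aggregating, had 73.5, 74.9 and 75.4 CPM in p53 WT and 96.1, 105 and 107 CPM in p53 KO. The p53 WT libraries were nearly level for DNAJB6, and it rose by 0.46 on the log2 scale (SE 0.10, adjusted p = 0.00272).

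DNAJB5 went the other way. This cytosolic relative of DNAJB1, known for a role in the redox control of a histone deacetylase in heart muscle, had 53.4, 50.7 and 45.4 CPM in p53 WT and 22.9, 32.7 and 27.7 CPM in p53 KO. No p53 KO library reached the p53 WT range, and the log2 fold change was -0.85 (SE 0.14, adjusted p = 0.000435). DNAJB1, DNAJB4 and DNAJB5, which are close in sequence layout, thus did not share a direction. DNAJC7, a co-chaperone with tetratricopeptide repeats that binds HSP70 and HSP90, had 142, 136 and 130 CPM in p53 WT and 170, 156 and 177 CPM in p53 KO. The groups stood apart by a small step, 0.30 on the log2 scale (SE 0.09, adjusted p = 0.0274).

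**Figure D3:**
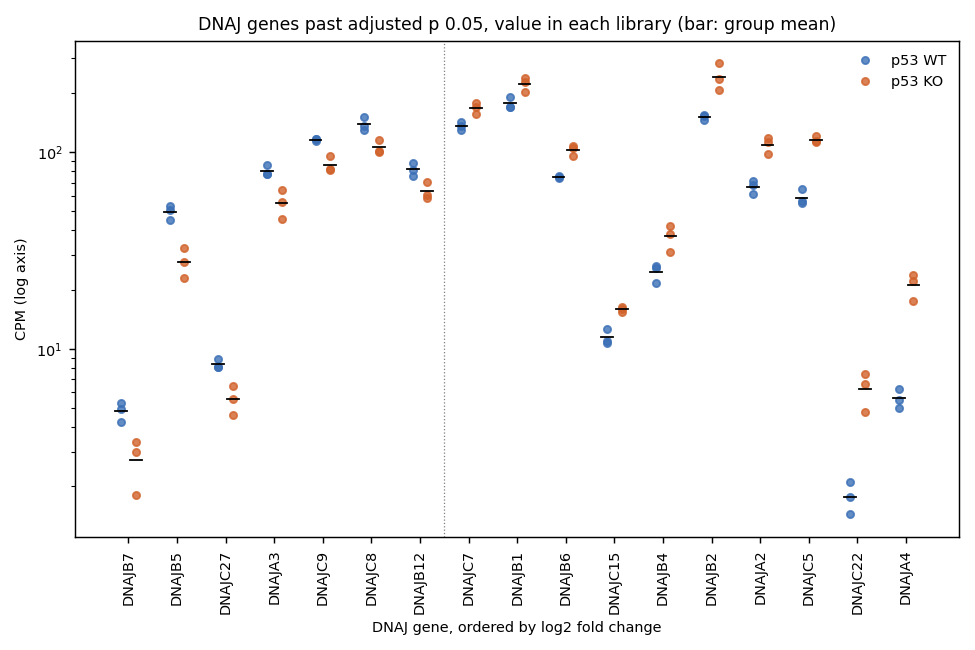
CPM (log axis) in each library for the 17 DNAJ genes past an adjusted p of 0.05, in order of log2 fold change; points are libraries, bars are group means, and the dotted line parts the 7 lower from the 10 higher genes. For each of the 17 the p53 WT and p53 KO points do not overlap, but the genes were chosen by a test on these same values.

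A pair of subfamily C members that sit at membranes rose most within their subfamily. DNAJC5, the cysteine string protein that guards SNARE proteins on secretory vesicles and also exports misfolded proteins, had 64.7, 56.1 and 55.3 CPM in p53 WT and 114, 121 and 113 CPM in p53 KO. All p53 KO libraries lay far above the p53 WT range, a step of 0.98 on the log2 scale (SE 0.10, adjusted p = 1.03e-05). DNAJC22, a predicted multi-pass membrane J protein, was scarce, at 1.77, 2.11 and 1.44 CPM in p53 WT (139, 142 and 35 counts) and 7.43, 6.62 and 4.76 CPM in p53 KO (550, 271 and 95 counts). It rose by 1.81 on the log2 scale (SE 0.28, adjusted p = 0.000253) with no overlap between groups, the largest step after DNAJA4.

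The other traffic members did not pass. DNAJC6, or auxilin, which strips clathrin coats, ranged from 5.19 to 8.88 CPM in p53 WT and from 5.35 to 9.17 CPM in p53 KO. DNAJC13, which works on endosomes, had 88.1 ± 14.9 and 90.9 ± 16.6 CPM (SD, n = 3). Both overlapped between groups, with adjusted p = 0.613 and 0.856.

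Of the 3 splicing and chromatin members, 2 fell, where 14.4% of all tested genes did, and neither of them passed once the median of its neighbours was subtracted. DNAJC8, a spliceosome-associated protein, had 136, 150.4 and 130 CPM in p53 WT and 99.7, 102 and 115 CPM in p53 KO, with -0.40 on the log2 scale (SE 0.10, adjusted p = 0.00956). DNAJC9, which binds histones H3 and H4 and couples them to HSP70, had 117, 116 and 114 CPM in p53 WT and 81.2, 81.8 and 95.03 CPM in p53 KO, with -0.43 on the log2 scale (SE 0.10, adjusted p = 0.00537). Both had p53 KO libraries wholly below the p53 WT libraries. DNAJC17, linked to splicing, had 17.9 ± 0.551 and 16.1 ± 0.848 CPM (SD, n = 3) without overlap, but did not pass (-0.15, adjusted p = 0.486). The call of DNAJC8 was lost without p53 WT replicate 2, at -0.34 (adjusted p = 0.0758). DNAJC9 shares exon sequence with genes on the opposite strand, among them FAM149B1 with -0.54 (adjusted p = 0.000931). Since the strand setting of the count is not given in the sources used here, reads of DNAJC9 and FAM149B1 cannot be told apart with certainty. DNAJA4, DNAJB1, DNAJC7 and DNAJC27, which passed, also share exon sequence with genes on the opposite strand. So do DNAJC2 and other members that did not pass, and the same limit holds for all of these.

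The ribosome members DNAJC2, which docks HSP70 at the ribosome exit, and DNAJC21, which helps to recycle factors of the large ribosomal subunit, did not pass. DNAJC2 had 74.0 ± 4.06 and 82.4 ± 7.60 CPM and DNAJC21 had 83.6 ± 6.34 and 88.0 ± 7.12 CPM (SD, n = 3). Their adjusted p-values were 0.327 and 0.673.

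Of 5 mitochondrial members, 1 rose and 1 fell, where 12.1% of all tested genes rose and 14.4% fell. The difference between these shares was not tested. With the median of the neighbours subtracted, 1 of the 5 was higher and 0 were lower. DNAJA3, the subfamily A chaperone of the matrix that is also known to bind p53, had 77.6, 77.8 and 86.1 CPM in p53 WT and 45.4, 64.1 and 55.6 CPM in p53 KO. Its groups stood apart, at -0.55 on the log2 scale (SE 0.13, adjusted p = 0.00515). With the median of its neighbours subtracted, DNAJA3 came to -0.10 and no longer passed (adjusted p = 0.664). DNAJC15, a regulator of the import motor at the inner membrane, had 10.98, 12.6 and 10.7 CPM in p53 WT and 15.4, 15.9 and 16.2 CPM in p53 KO. It rose by 0.47 on the log2 scale (SE 0.15, adjusted p = 0.0355), but it did not pass when any 1 of the 6 libraries was left out, the value then running from 0.42 to 0.54 (adjusted p = 0.054 to 0.124).

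DNAJC19, the paralog of DNAJC15 at the import motor, had 16.0 ± 1.88 and 15.4 ± 3.27 CPM (SD, n = 3), so it overlapped and did not pass (adjusted p = 0.828). DNAJC11, which belongs to the cristae-organising assembly, had 63.9 ± 7.62 and 67.3 ± 2.72 CPM (SD, n = 3, adjusted p = 0.672). DNAJC30, which works with the ATP synthase and complex I, had 12.3, 12.0 and 9.99 CPM in p53 WT and 8.38, 5.25 and 10.4 CPM in p53 KO. One p53 KO library of DNAJC30 lay inside the p53 WT range, and the log2 fold change of -0.53 (SE 0.23) did not pass (adjusted p = 0.115), whereas without that library, p53 KO replicate 3, it was -0.73 (adjusted p = 0.0254).

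Of 9 tested endoplasmic reticulum members, 0 rose and 1 fell, which is 11.1% beside 26.5% of all tested genes, and the difference between these shares was not tested. Their median was -0.01, with members on both sides of 0. The groups did not overlap for 33.3% of them, beside 40.8% of all tested genes. In the lumen, DNAJB9, DNAJB11, DNAJC3 and DNAJC10 serve the HSP70 protein BiP, encoded by HSPA5, in folding and in the disposal of misfolded proteins. DNAJC10, which also reduces disulphide bonds, had 174, 190 and 201 CPM in p53 WT and 192, 190.3 and 158 CPM in p53 KO, so its libraries overlapped (-0.06, SE 0.10, adjusted p = 0.725). DNAJB11 had 112, 115 and 106 CPM in p53 WT and 124, 124 and 142 CPM in p53 KO. Its groups did not overlap, but 0.23 on the log2 scale (SE 0.10) did not pass (adjusted p = 0.111).

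DNAJB9, which is induced when unfolded proteins pile up, had 10.0 ± 1.71 and 10.7 ± 2.59 CPM (SD, n = 3, adjusted p = 0.78). DNAJC3, an inhibitor of eIF2alpha kinases that also binds clients in the lumen, had 31.6 ± 6.03 and 31.2 ± 4.07 CPM (SD, n = 3, adjusted p = 0.967). Neither therefore differed beyond the spread of these libraries, which leaves small differences undetectable. HSPA5 itself did not pass, at 0.01 on the log2 scale (SE 0.10, adjusted p = 0.945).

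In the membrane of the endoplasmic reticulum, DNAJB12, which helps to clear misfolded membrane proteins, fell from 75.5, 81.5 and 88.5 CPM in p53 WT to 60.2, 58.7 and 70.8 CPM in p53 KO. Its groups stood apart by a small step, -0.37 on the log2 scale (SE 0.11, adjusted p = 0.0232). DNAJB14, its paralog, had 17.2 ± 0.599 and 13.9 ± 4.41 CPM (SD, n = 3, adjusted p = 0.347), the low value being p53 KO replicate 3 at 8.97 CPM. DNAJC1, DNAJC14 and DNAJC16 had 0.17, 0.23 and -0.31 on the log2 scale (adjusted p = 0.349, 0.125 and 0.264).

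Among the remaining members, DNAJC27, a small GTPase with a J domain, was at 8.83, 8.06 and 8.10 CPM in p53 WT and 4.58, 6.50 and 5.56 CPM in p53 KO. It passed narrowly (-0.59, SE 0.21, adjusted p = 0.049). DNAJB7, a retained copy best known from testis, was at 4.96, 4.22 and 5.30 CPM in p53 WT and 1.80, 2.98 and 3.36 CPM in p53 KO, and also passed narrowly (-0.85, SE 0.29, adjusted p = 0.0431). It lies within XPNPEP3 on the opposite strand, which had -0.48 (adjusted p = 0.00711), so reads of DNAJB7 and XPNPEP3 cannot be told apart with certainty either. DNAJC24, which acts in diphthamide synthesis, DNAJC25, DNAJC4 and DNAJC28 did not pass, at -0.41, -0.26, -0.11 and 0.10. DNAJC25 shares exon sequence with the read-through gene DNAJC25-GNG10, which had -0.44 (adjusted p = 0.0474). DNAJB13, a radial spoke protein of sperm tails, had 0.218 ± 0.114 and 0.223 ± 0.104 CPM (SD, n = 3), with 61 counts in all, and nothing can be said of its difference.

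The other 6 members had too few counts to be tested. DNAJB3 and DNAJB8, known from testis, were at 0 counts in every library. DNAJC5G, also known from testis, had 4 counts in p53 WT and 0 in p53 KO. DNAJC18 had 4, 2 and 3 counts in p53 WT and 0 in each p53 KO library, with an upper limit of 0.639 for the ratio of p53 KO to p53 WT (95% exact binomial interval, counting error only). DNAJC5B, a paralog of DNAJC5 known from testis, had 1 count in p53 WT and 1, 9 and 3 counts in p53 KO, a ratio of 16.4 (95% exact binomial interval 2.46 to 697, counting error only). DNAJC12, a co-chaperone of the aromatic amino acid hydroxylases, had 13, 10 and 2 counts in p53 WT and 3, 28 and 15 counts in p53 KO, so p53 KO replicate 1 went against the other two p53 KO libraries.

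Neighbouring genes moved with the members that fell. The median log2 fold change of the 50 nearest genes lay between -0.45 and -0.33 for all 7 members called lower, while 16% of all tested genes with a known place, and 42.9% of those called lower, had a local median under -0.3. Once that local median was subtracted, 1 of the 7, DNAJB5, was still lower (-0.51, adjusted p = 0.0173). DNAJA3, DNAJB12, DNAJC8 and DNAJC9 came to -0.10, -0.03, -0.05 and -0.07, and DNAJB7 and DNAJC27 to -0.49 and -0.25 (adjusted p = 0.278 to 0.877 for these 6).

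The members that rose had local medians of -0.11 to 0.67, and 8 of the 10 were still higher with the local median subtracted. DNAJC5, with a local median of 0.59 on chromosome 20, came to 0.39 (adjusted p = 0.0148). DNAJC22, DNAJA2, DNAJB2, DNAJB4, DNAJC15 and DNAJB6 came to 1.63, 0.55, 0.55, 0.66, 0.58 and 0.33. DNAJB1 and DNAJC7 no longer passed, at 0.16 and 0.21 (adjusted p = 0.311 and 0.151). DNAJB11, whose neighbours on chromosome 3 had a median of -0.42, passed only here, at 0.64 (adjusted p = 0.00034). In that fit 9 members were higher and 1 lower, 10 of the 39 tested. Of all 22352 tested genes, 2118 were higher and 2284 lower, 19.7% in all. Only 17127 of these genes had a local median, and the rest were fitted with nothing subtracted. All 39 members had one, so the 2 shares are not fully alike.

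**Figure D4:**
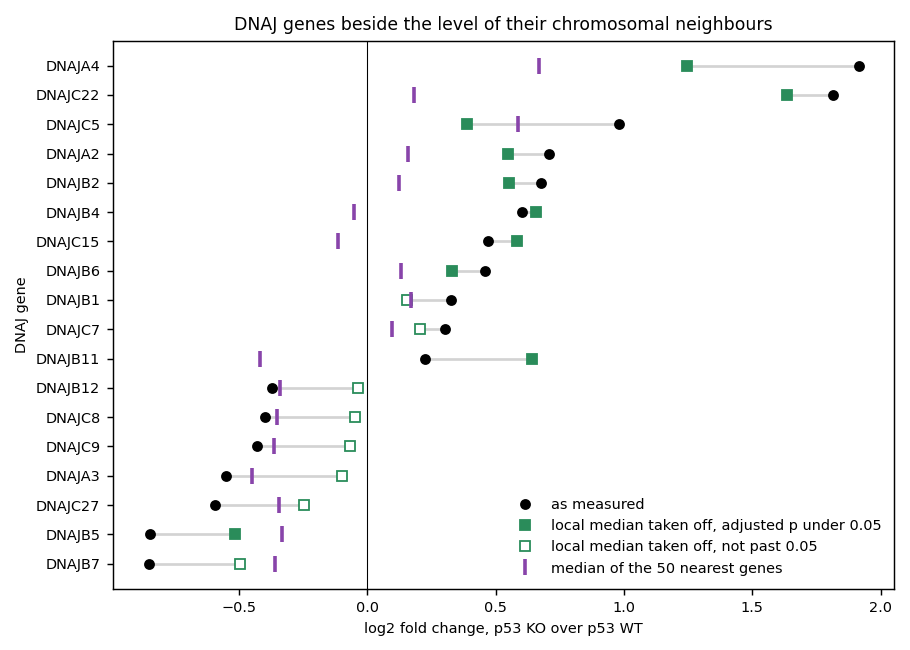
Log2 fold change of the 17 DNAJ genes past the threshold and of DNAJB11, as measured (black) and after the median of the 50 nearest genes (purple bar) was subtracted (green; filled where the adjusted p stayed under 0.05). Of the 7 genes on the left, 6 move towards 0 and become open squares, whereas 8 of the 10 called higher stay filled.

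The count of calls among the members fell whichever single library was left out. Among all genes it fell too, except without p53 KO replicate 3, where it rose to 6059 (16 among the members). The 17 calls became 10 without p53 WT replicate 2, 11 without p53 WT replicate 3 and 11 without p53 KO replicate 1. Over all tested genes 5924 calls became 4160, 4627 and 5008 in the same fits. Of the 17, DNAJA2, DNAJA4, DNAJB2, DNAJB4, DNAJB5, DNAJB6, DNAJC5 and DNAJC22 kept their call in every alternative that was run, 8 in all. DNAJB1 did not pass without p53 WT replicate 2 or 3 or p53 KO replicate 1, at 0.30, 0.29 and 0.28. DNAJB12 did not pass without p53 WT replicate 2 or 3 or p53 KO replicate 1 or 2, at -0.38, -0.32, -0.34 and -0.33. DNAJC7 did not pass without p53 WT replicate 1, 2 or 3 or p53 KO replicate 1, at 0.33, 0.30, 0.26 and 0.30. DNAJB7 passed only without p53 KO replicate 3 and DNAJC27 only without p53 KO replicate 2, with values of -1.01 to -0.61 and -0.73 to -0.46 over the 6 fits.

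In the authors' deposited table, whose fold change is read as p53 WT over p53 KO because CDKN1A is positive in it at 3.54, 13 of the 17 called members had an adjusted p under 0.05 and all 17 had the matching direction. In that table the fold change and the test statistic have the same sign in 0 of 35987 rows, so its columns differ on direction, and the reading rests on CDKN1A. That table marked 0.345% of its genes as intersecting a p53 cistrome, and 0 of the 45 DNAJ members were among them. With so few genes marked in the whole table, nothing can be read from 0 of 45.

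The partners of the family, taken from lists of HSP70 genes, nucleotide exchange factors and other co-factors, passed in 24 of 57 tested cases (42.1%, beside 26.5% of all tested genes), 14 higher and 10 lower. Among genes with at least 1 CPM in 3 libraries, 25 of 57 partners and 5922 of 17176 genes passed. With the local median subtracted, 15 partners were higher and 3 lower, where 2118 of all tested genes were higher and 2284 lower. Those totals include genes without a local median, from which nothing was subtracted. Of 13 tested genes listed as HSP70 by their HSPA symbol, HSPA4 and HSPA4L among them, 6 rose and 1 fell, with a median of 0.32. HSPA1L rose by 2.23 (SE 0.13, adjusted p = 3.83e-08), and HSPA1A and HSPA1B, near-identical inducible copies whose reads are uncertain between them, by 1.99 and 1.87. The constitutive partner HSPA8 rose from 2849 ± 156 to 3431 ± 158 CPM (SD, n = 3, 0.27 on the log2 scale, adjusted p = 0.03), or 0.21 (adjusted p = 0.105) with its neighbours' median subtracted. HSPA9, the HSP70 of the mitochondrion, did not pass, at 0.04 (adjusted p = 0.799).

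Of 12 nucleotide exchange factors and HSP110 genes, which release ADP so that HSP70 lets go of its client, 3 rose and 2 fell, with a median of 0.13. That is 41.7% of them, beside 26.5% of all tested genes. BAG3 and HSPH1 rose by 0.55 and 0.53, and BAG5 fell, with -0.83 before and 0.13 (adjusted p = 0.502) with the local median subtracted. Of 10 further co-chaperones and heat shock regulators 3 rose and 2 fell: STIP1, which links HSP70 to HSP90, rose by 0.50, and STUB1, a ubiquitin ligase that works with both, had -1.02, or -0.37 (adjusted p = 0.0928) with the local median subtracted. In the fit with neighbours subtracted this list had 4 higher and 0 lower: HSP90AA1 went from -0.24 (adjusted p = 0.0722) to 0.71 (adjusted p = 0.000101), AHSA1 from 0.02 (adjusted p = 0.909) to 0.91 (adjusted p = 1.95e-05), and HSBP1 from 0.81 to 0.24 (adjusted p = 0.184). HSF1, the master regulator of the heat shock response, did not pass, at -0.06 (SE 0.09, adjusted p = 0.682), or 0.19 (adjusted p = 0.182) with its neighbours' median subtracted. Of the J-domain genes named otherwise, HSCB, which hands on iron-sulphur clusters, fell (-0.53, adjusted p = 0.0365, or -0.24 with adjusted p = 0.394 with the local median subtracted), and SEC63 and GAK did not pass.

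Of 10 partners in the endoplasmic reticulum, 0 rose and 2 fell, PDIA6 (-0.36) and CRELD2 (-1.09), which is 20% beside 26.5% of all tested genes. With the local median subtracted PDIA6 came to 0.03 (adjusted p = 0.839), while PDIA4, ATF6 and CRELD2 were lower and XBP1 higher. Of 8 mitochondrial partners 2 rose and 2 fell, 50% of them. HSPE1 and HSPD1, the subunits of the matrix chaperonin, rose by 0.60 and 0.28, while PAM16 and TIMM23 of the import machinery fell (-0.54 and -0.39) and came to -0.09 and 0.13 with the local median subtracted.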

How the data were processed

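The authors deposited raw counts per gene symbol, 1 column per library, and none was left unused. The tools named are fastp (version 0.21.0), the aligner HISAT2 (2.1.0) and DESeq2 (1.3.6), with build GRCh37, per the submitters' processing notes. How reads were assigned to genes, the annotation and the strand setting: not given in the sources used here. The authors' deposited comparison table gives, per gene, the mean normalised signal over all libraries, the log2 fold change and its error, a test score and p-values, per the file headers.

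Counts were fitted with edgeR 4.0.16 (R 4.3.3; TMM, filterByExpr, robust quasi-likelihood F-test, Benjamini-Hochberg over all tested genes; limma 3.58.1 for the voom fit and DESeq2 1.42.0 as alternatives). CPM use TMM-scaled library sizes. Standard errors (SE) were derived from each gene's log2 change and F statistic (the change over the root of F). The fit was tested on simulated data. Local medians used the 50 nearest tested protein-coding genes (mean 2 CPM or more) in RefSeq order on GRCh38.p14, another build, the gene itself left out. Genes without a local median were kept in that fit with nothing subtracted. Replicates were not copies (lowest chi-square per degree of freedom 16.7). The members, the lists, the grouping by place in the cell and the local median were chosen with earlier results of these data known. Every member past an adjusted p of 0.05 is named, with the value in each library where the mean is at least 5 CPM and the groups do not overlap, as are the 2 most abundant of each subfamily. DNAJB7, DNAJC22, DNAJC30 and DNAJB11 are given by library beyond that rule. Lists show their members of smallest adjusted p and others chosen after their values were seen. Endothelial (2 tested) and epithelial (4 tested) markers summed to 1.30 to 3.29 and 6.60 to 20.2 CPM. The targeted gene's own transcript and some list members are not reported here.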

Additional observations from a re-analysis of the deposited data

How the results depend on the processing

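Direction was judged for the 39 tested members over 16 alternatives, and 538 values kept both direction and side of the threshold, 53 lost the call, 3 gained it and 29 changed sign. With an adjusted p under 0.01, 3758 genes, 11 DNAJ members, 4 of subfamily B, 4 of subfamily C and 15 partners passed. Taking off the local median left 10 DNAJ members and 3 of subfamily C, and having no filter on low counts left 4 of subfamily C. Leaving out 1 library gave 4160 to 6059 genes, 10 to 16 DNAJ members, 3 to 3 of subfamily A, 4 to 7 of subfamily B, 3 to 6 of subfamily C and 16 to 25 partners. The share of called members that was higher was 58.8%, 66.7% with upper-quartile factors and 90% (of 10 members) with the local median taken off. Among all called genes the share was 45.5%, 49.7% and 48.1% in the same settings. Deviations of same-numbered libraries correlated at -0.0649, 0.168 and -0.246, inside the range of libraries of unlike number. With 3 libraries per group the deviations depend on each other, so these values cannot settle whether the replicate numbers pair the samples. Libraries of unlike number ran from -0.461 (p53 WT replicate 1 with p53 KO replicate 2) to 0.444 (p53 WT replicate 1 with p53 KO replicate 3). Whether libraries shared a batch under other numbers was not tested. With the replicate number as a block, 13 members passed and 4 of subfamily C, 5159 genes in all. No DNAJ value that changed sign was past the threshold in any setting. With the local median taken off, DNAJC11 came to -0.0070, DNAJC10 to 0.016, DNAJC13 to -0.36, DNAJC19 to 0.20, DNAJA1 to 0.24, DNAJC3 to 0.025 and DNAJC28 to -0.083. Upper-quartile factors gave DNAJA1 0.00088 and DNAJC3 0.020, no composition factors gave DNAJC3 0.011, and limma-voom gave DNAJC3 0.074 and DNAJC28 -0.0032. Over the fits without 1 library, DNAJC10 ran from -0.13 to 0.034, DNAJC13 from -0.10 to 0.18, DNAJC19 from -0.23 to 0.062, DNAJB9 from -0.037 to 0.29, DNAJA1 from -0.073 to 0.012, DNAJB13 from -0.37 to 0.46, DNAJC3 from -0.18 to 0.091 and DNAJC28 from -0.12 to 0.56. The cause of these changes was not tested.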
